A study of Caenorhabditis elegans with 2 samples.

Results

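The histone genes of Caenorhabditis elegans were examined in peak lists from a ChIP-seq experiment on NHR-179, a protein of the nuclear hormone receptor family. All nuclear protein-coding genes of the WBcel235 assembly whose symbol is his- followed by a number were taken, which gave 72 of 19973 genes. They were chosen by symbol and not by any peak. The samples were 2 biological replicates, numbered 2 and 3, of intact hermaphrodite worms at the young adult stage. Their strain, OP465, carries the unc-119(tm4063) mutation on III and the transgene insertion wgIs465. The transgene gives a fusion of NHR-179 to a GFP-FLAG tag at the C-terminal end, and chromatin was precipitated with an antibody against GFP, although a separate antibody label names the target, nhr-179. Larvae were synchronized by starvation at L1 after bleaching, and worms were harvested 64 hours later. Both replicates carried the same alleles and formed 1 group, so there was no treatment or genotype to compare. Because whole animals were used, the tissue in which a peak arose was not resolved, and no expression was measured.

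Core histones H2A, H2B, H3 and H4 form the protein spool on which DNA is wound in the nucleosome, and H1 is the linker histone that binds the DNA between spools. Most animal genes for core histones are present in many copies, are used when DNA is replicated, lack introns and end in a short RNA hairpin instead of a poly(A) tail. Genes for replacement variants such as H3.3 work outside replication and usually carry introns and poly(A) tails. A ChIP-seq peak is a region with more sequenced fragments than its surroundings, and its summit is the position where the fragments pile up highest. Peaks at histone genes therefore have to be read with the copies in mind, because fragments from identical copies cannot be assigned to 1 of them.

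The 72 genes comprised 17 for H2A, 16 for H2B, 15 for H3, 16 for H4 and 5 for H3.3-like proteins. The remaining members were his-24, a gene for an H1 linker histone and so not a core histone, and the short genes his-39 and his-73, which encode fragments of 46 to 67 amino acids and were left unclassified. All 15 H3 genes encoded the same protein of 136 amino acids through 11 different coding sequences, and all 16 H4 genes encoded the same protein of 103 amino acids through 12. The 17 H2A genes held 10 coding sequences for 3 proteins, and the 16 H2B genes held 9 coding sequences for 4 proteins. Many copies were thus identical in protein and several also in DNA.

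Most of the genes carried the hairpin of replication histones. A perfect stem of 6 bases beginning with GG around a loop of 4 bases was found within 100 bases after the coding end in 56 of 72 histone genes (77.8%), against 67 of 19973 protein-coding genes (0.335%), these 56 included. Outside the chromosome carrying his-67 and his-68, 2 forms occurred, 35 to 61 bases after the coding end, which differ in the last base of the loop. They are shown because the genes are divided by the hairpin below. The first was found in 51 genes and the second in 4. Capitals mark the stem and lower case the loop, written as DNA from the genome sequence of RefSeq (WBcel235).
Form in 51 genes: GGCCCTctttAGGGCC
Form in 4 genes: GGCCCTcttaAGGGCC

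Histone genes lay mostly as divergent pairs, in which 2 genes are transcribed away from each other across a shared promoter region. There were 16 pairs of H2A with H2B, separated by 227 to 327 bp with a median of 292, and 14 pairs of H3 with H4, separated by 234 to 321 bp with a median of 255. A further pair joined his-67 (H4) and his-68 (H2A), 368 bp apart. The hexamer TATAAA, the core of the TATA box at which transcription is positioned, was read on both strands. It occurred in 13 of the 16 and in 10 of the 14 regions. In the 250 bases before the start it occurred in 47 of 72 histone genes (65.3%), against 35.2% of all protein-coding genes. Because these bases overlap between partners and recur in identical copies, the 47 are not separate occurrences.

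The following regions between pairs are shown because they illustrate how far copies are identical and where a summit would have to lie to be in a histone promoter. Capitals mark TATAAA on either strand, coordinates are on ce11 (WBcel235, counted from 1), and the sequence is that of RefSeq. The region between his-51 and his-52 (chrV:8850172-8850463, plus strand) has 4 identical copies, and that between his-10 and his-9 (chrII:13823376-13823647, minus strand) has 3. The region between his-2 and his-1 (chrV:16042284-16042519, plus strand) has no identical copy and held a summit in the replicate 2 list.
his-51 to his-52: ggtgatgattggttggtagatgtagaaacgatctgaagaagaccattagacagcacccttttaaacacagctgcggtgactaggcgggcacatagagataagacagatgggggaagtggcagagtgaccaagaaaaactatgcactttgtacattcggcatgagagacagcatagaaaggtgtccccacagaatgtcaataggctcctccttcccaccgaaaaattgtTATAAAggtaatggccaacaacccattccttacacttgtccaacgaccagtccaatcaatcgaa
his-9 to his-10: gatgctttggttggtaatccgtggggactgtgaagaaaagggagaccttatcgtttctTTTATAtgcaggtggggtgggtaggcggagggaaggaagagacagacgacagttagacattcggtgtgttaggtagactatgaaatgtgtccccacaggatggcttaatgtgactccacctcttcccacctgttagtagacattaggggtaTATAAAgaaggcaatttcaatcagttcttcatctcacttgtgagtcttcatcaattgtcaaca
his-2 to his-1: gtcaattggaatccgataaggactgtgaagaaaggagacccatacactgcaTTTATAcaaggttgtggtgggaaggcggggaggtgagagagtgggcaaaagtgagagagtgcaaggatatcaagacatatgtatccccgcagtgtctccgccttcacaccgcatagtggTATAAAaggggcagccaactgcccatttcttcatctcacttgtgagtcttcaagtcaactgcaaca

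The authors deposited 4 lists on ce11: an optimal list with 233 nuclear peaks that were reproducible between replicates, a list with 9583 nuclear peaks from the pooled replicates, and lists with 12843 and 13722 nuclear peaks for replicate 2 and replicate 3. The longer lists hold background regions as well as peaks. Each peak carries the authors' signal, a score whose scaling is not stated, so it was used only to rank peaks within a list. The percentile of a peak is the percentage of nuclear peaks in its list with a lower signal. The files hold no read counts, so sequencing depth is unknown and no interval resting on depth is given. A gene was counted when a summit lay within 1000 bp of an annotated transcript start. The 2 replicates are described side by side, without a test.

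No histone gene had a summit in the optimal list, in which 0.581% of all protein-coding genes had one. In the pooled list 14 of 72 histone genes had a summit (19.4%), beside 22.2% of all protein-coding genes. In the replicate 2 list 20 histone genes had one (27.8%), beside 28.3% of all genes, and in the replicate 3 list 22 had one (30.6%), beside 30.1%. As a whole, the share of histone genes near a summit was close to that of protein-coding genes in each of these 3 lists. Both replicate lists held a summit near 15 histone genes (20.8%), beside 14.0% of all genes. When the summits of both replicates had to lie within 100 bp of each other, 4 histone genes remained (5.56%), beside 5.95% of all genes, so most joint calls came from summits at different positions. No summit in any list lay near 45 of the 72 genes, beside 10950 of all 19973 protein-coding genes, so most genes in both groups lacked one. Of the 14 genes with a pooled summit, 6 had it within 500 bp, a distance for which no share over all genes was taken. When each pooled summit was given only to its nearest protein-coding start, 7 of the 72 histone genes had one. This was a lower share than the 3876 of all 19973 protein-coding genes counted in that way. Just inside the limit of 1000 bp were his-72 at 829 bp and his-42 at 872 bp, and just outside it were his-35 at 1054 bp and his-33 at 1292 bp, with pooled signals of 33.2, 62.1, 38.9 and 41.3.

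**Figure D1:**
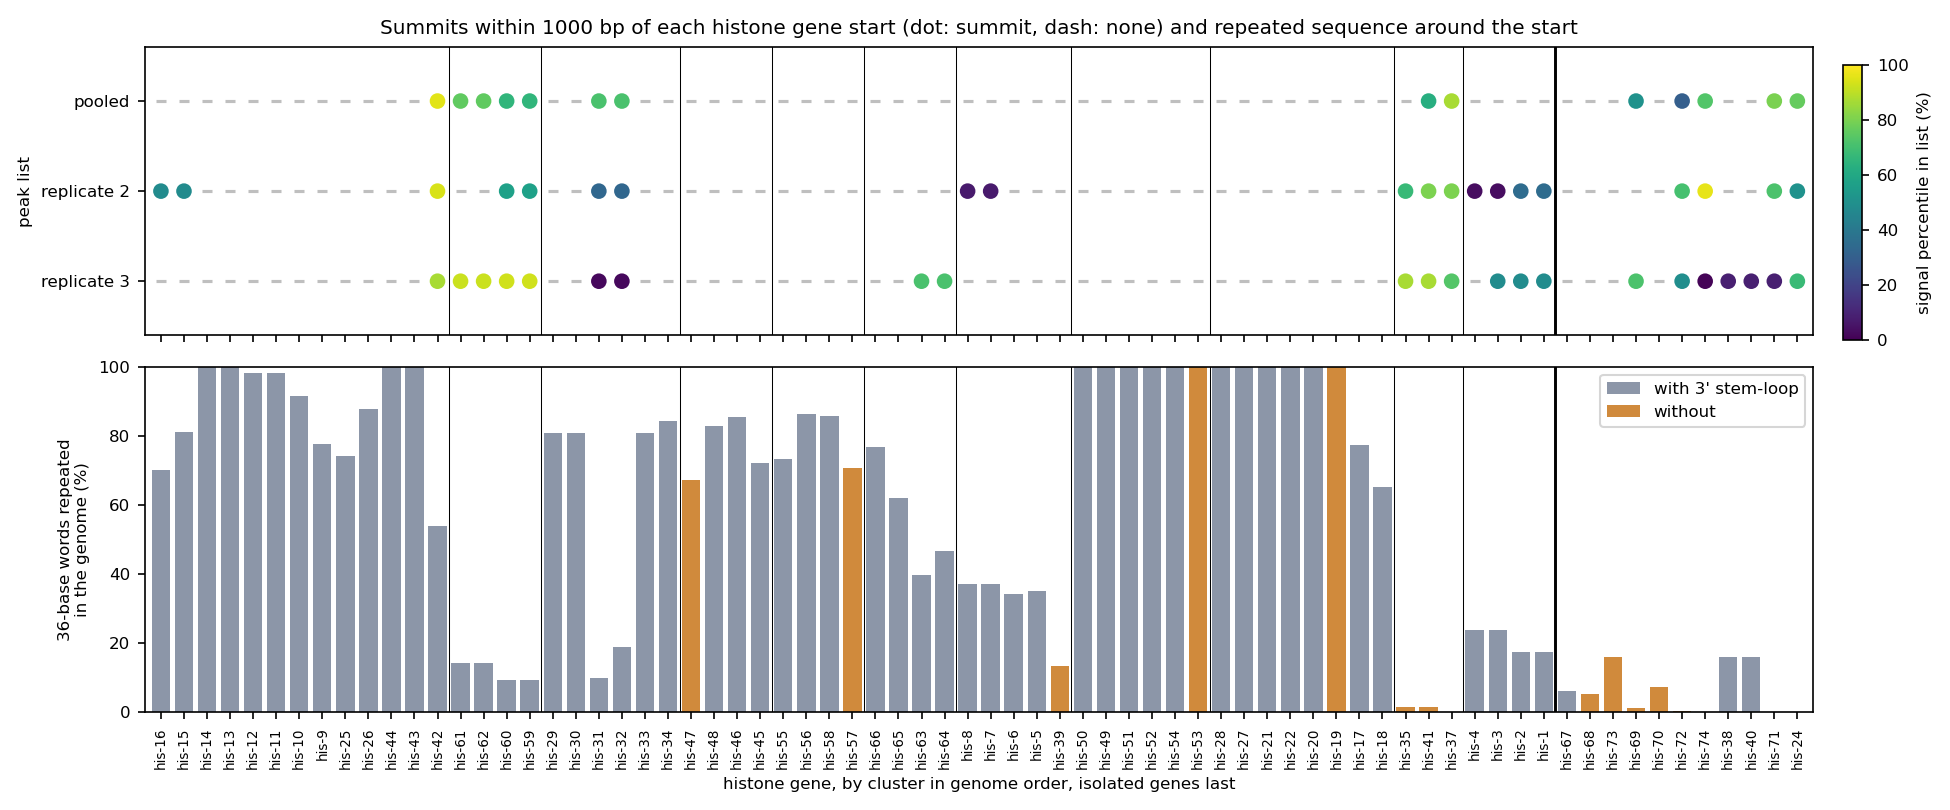
Each column is a histone gene, with the 11 clusters separated by thin lines and the 11 isolated genes right of the thick line. The upper panel shows a dot for a summit within 1000 bp in the pooled, replicate 2 and replicate 3 lists, coloured by the percentile (%) of the highest signal in its list, and the lower panel shows the percentage of 36-base words around the start that recur in the genome. Long runs of genes without dots stand above bars near 100%, and dots gather over low bars.

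The summits near histone genes were of moderate rank. The 14 genes shared 13 distinct pooled summits, with a signal of 30.2 to 62.1 and a median of 41.3, against a median of 36.2 over nuclear pooled peaks. The median percentile was 71.4, with a range from 1.89 to 95.5. The lowest signal in the optimal list was 74.7, above every pooled summit near a histone gene. The highest −log10 of the deposited q value (q-value) among them was 1.32, and the lowest in the optimal list was 1.66.

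By histone class, 1 of 17 H2A genes, 2 of 16 H2B genes, 3 of 15 H3 genes and 3 of 16 H4 genes had a pooled summit. These were 5.88% of H2A, 12.5% of H2B and 18.8% of H4 genes, with H3 slightly above H4, beside 22.2% of all protein-coding genes, so the shares of H3 and H4 were close to it. Of the 5 genes for H3.3-like proteins, 4 had one, and so did the linker histone gene his-24. Neither short gene, his-39 nor his-73, had a summit in any list. The genes with a pooled summit for nucleosome core proteins were his-61 (H2A), his-62 and his-41 (H2B), his-42, his-59 and his-32 (H3), and his-60, his-31 and his-37 (H4). Start windows of 1000 bp overlap between neighbouring genes, so summits were shared too, and 4 of the 13 lay near more than 1 member. None of the 13 lay between the partners of a divergent pair, but these regions are short and nothing is read from this.

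Genes were called clustered when they belonged to a chain of 3 or more histone genes with gaps of at most 10 kb. This gave 11 clusters with 61 genes on II, IV and V, and 11 genes outside them, called isolated. The isolated genes include neighbouring pairs, namely his-67 with his-68, his-69 with his-70, and his-38 with his-40. The clusters with 1000 bp on either side covered 80.2 kb and held 7 pooled summits, or 0.873 per 10 kb, against 0.899 per 10 kb on the rest of these chromosomes. Replicate 2 had 1.87 summits per 10 kb in the clusters and 1.21 outside, and replicate 3 had 1.12 and 1.30. The replicates therefore lay on opposite sides of the level of their chromosomes.

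The largest cluster, from his-16 (H2A) to his-42 (H3) on II (13817760 to 13828697), holds 13 genes. It had 1 pooled summit, 3 in replicate 2 and 2 in replicate 3. These stood at its edges, beside his-42 at one end and, in replicate 2 alone, beside his-16 and his-15 at the other. Of the 36-base words in the cluster, 80.5% occurred more than once in the genome. The 10 genes between these ends had no summit in any list.

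The cluster from his-61 (H2A) to his-59 (H3) on IV (7485834 to 7488659) was the only one in which each gene had a pooled summit. Its 4 genes form 2 divergent pairs, and 2 pooled summits served both, 1 at each pair. Replicate 3 also had a summit near all 4 genes, and replicate 2 near his-60 and his-59 only. Only 9.83% of its words were repeated. On the same chromosome, the cluster from his-29 to his-34 (both H2B) at 8331044 to 8336340 had 1 summit in each of the pooled and replicate lists, near the central pair his-31 and his-32, and none at its other 4 genes.

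The other 3 clusters on IV had no pooled summit. These were his-47 (H2A) to his-45 (H3) at 11324056 to 11326998, with 59.6% of words repeated, and his-55 (H3) to his-57 (H2A) at 11337853 to 11341703, with 51.6%. Neither had a summit in the replicate lists. In the third, from his-66 (H2B) to his-64 (H4) at 11400415 to 11407427, replicate 3 had 1 summit, in the coding exon of his-63. Its signal of 22.2 was at the 71.4 percentile.

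On V, 2 clusters stood in long stretches without pooled summits. The cluster from his-50 (H4) to his-53 (H2A) at 8847393 to 8854053 had every word repeated (100%), and its nearest pooled summits were 42243 bp to the left and 82407 bp to the right. The cluster from his-28 to his-18 (both H4) at 8889488 to 8898539 had 91.0% of words repeated, with the nearest pooled summits 84338 bp and 37921 bp away. These clusters contain the 4 identical copies of the region between his-51 and his-52 shown above, and no list had a summit at any of their 14 genes.

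The other clusters on V differed from these. The cluster from his-35 (H2A) to his-37 (H4) at 9544659 to 9547607 had 3 pooled summits, 6 in replicate 2 and 2 in replicate 3, in 4.95 kb of which 0.611% was repeated. Its 3 genes carry introns and lack the hairpin, and the only other clustered gene with introns was his-57. The cluster from his-8 (H2B) to the short gene his-39 at 8532715 to 8536716 had 1 summit in replicate 2, with a signal of 16.4. The cluster from his-4 (H2B) to his-1 (H4) at 16040144 to 16042831 had none in the pooled list. Replicate 2 had 2 summits, at the 3.21 and 34.9 percentiles, which together lay near all 4 genes. Replicate 3 had 1, at the 48.4 percentile, near 3 of them. The closest summits of the replicates were 312 bp apart.

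Isolated genes had a pooled summit more often than clustered genes, 5 of 11 (45.5%) against 9 of 61 (14.8%), a difference of -30.7 percentage points (clustered minus isolated). All protein-coding genes stood between them at 22.2%. Of the isolated genes, 4 lie on X, of which 2 had a pooled summit, and the share of all protein-coding genes with one was 32.5% on X, against 19.8% on II, 22.1% on IV and 21.7% on V, where the clusters lie. The part of the chromosome in the difference was not tested. In replicate 3 the shares were 63.6% of isolated and 24.6% of clustered genes, a wide gap. In replicate 2 they were 36.4% and 26.2%, a difference of -10.1 percentage points, so the gap depended on the replicate. The SD of this difference over the replicate lists was 20.4 percentage points. Within 500 bp of a start it was -0.894 percentage points, so nearly all of it lay in summits farther out. With neighbouring pairs counted as clusters it was -65.1, but only his-24, his-71, his-72, his-73 and his-74 then stayed isolated. The pooled summits of his-72 and his-74 were nearer to the start of another gene.

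Gene structure divided the members further, in splits chosen after the values had been seen. With introns, 6 of 8 histone genes had a pooled summit (75.0%), and without introns 8 of 64 (12.5%). Among the 6, the only pooled summit of his-41, his-72 and his-74 was nearer to the start of another gene. Over all protein-coding genes, the shares were 22.2% with introns and 22.5% without, nearly equal. With the hairpin, 7 of 56 had a pooled summit (12.5%), and without it 7 of 16 (43.8%). The only histone gene with introns and no summit in any list was his-57, in a window of which 70.8% was repeated.

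**Figure D2:**
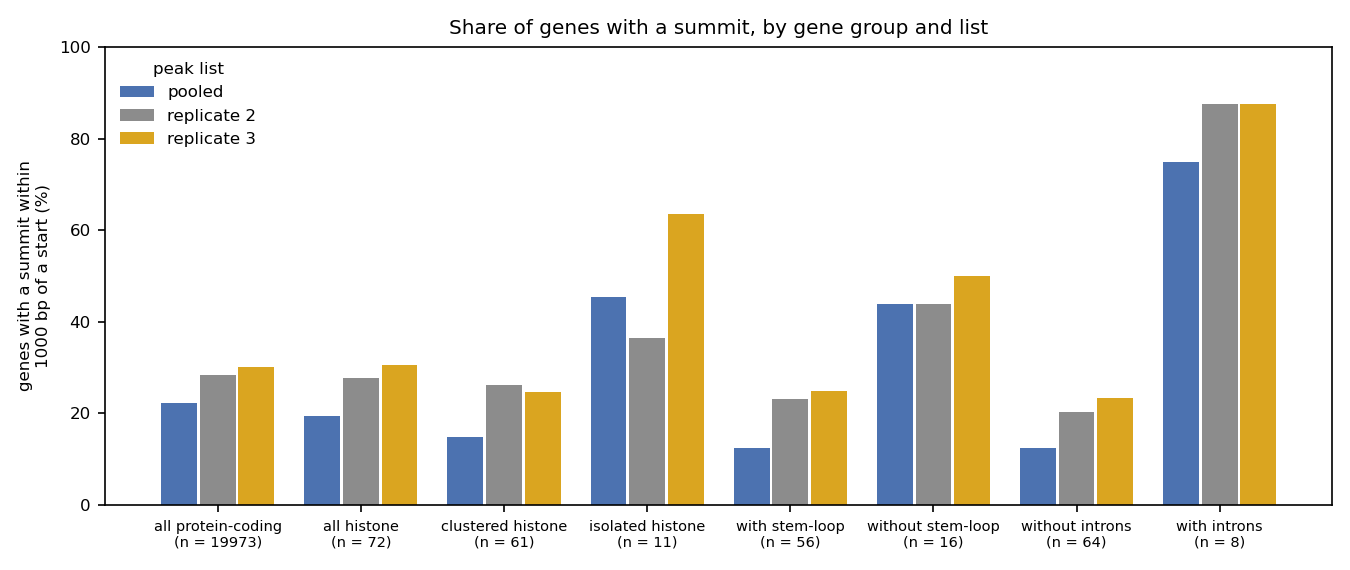
The bars give the percentage of genes with a summit within 1000 bp of a start in the pooled, replicate 2 and replicate 3 lists, for all protein-coding genes and for groups of histone genes with the number of genes (n) below. All histone genes together stand near all protein-coding genes, and histone genes with introns stand highest, at 75.0% in the pooled list.

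Repeated sequence followed the same divisions. A word was called repeated when the 36 bases occurred elsewhere in the genome on either strand, and its share was taken over the 2001 bases around each start. The median share was 77.3% for clustered genes, 5.24% for isolated genes and 0 for all protein-coding genes. Among histone genes with under 10% repeated words, 9 of 13 had a pooled summit (69.2%), beside 24.0% of all protein-coding genes at that level. From 10 to 50% it was 4 of 18 (22.2%), beside 13.3%. At 50% or more it was 1 of 41 (2.44%), beside 11 of 493 (2.23%). Highly repeated histone genes were thus at the level of all highly repeated protein-coding genes, which include them. Of the 9 genes under 10%, his-41, his-69, his-72 and his-74 had only a pooled summit nearer to another gene's start. Further, his-59 and his-60 shared 1 summit. All protein-coding genes were counted by the same rule.

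The clustered and isolated genes differed less once repeated windows were set aside. Among histone genes with under 50% repeated words, 8 of 20 clustered genes had a pooled summit, and the difference between clustered and isolated genes was -5.45 percentage points. Whether the authors kept fragments with several matches in the genome is not given in the sources used here. A lack of binding and a lack of placed fragments in repeated sequence cannot be told apart. Introns, the hairpin, clustering and repeated sequence move together among the 72 genes, and their separate parts were not tested.

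**Figure D3:**
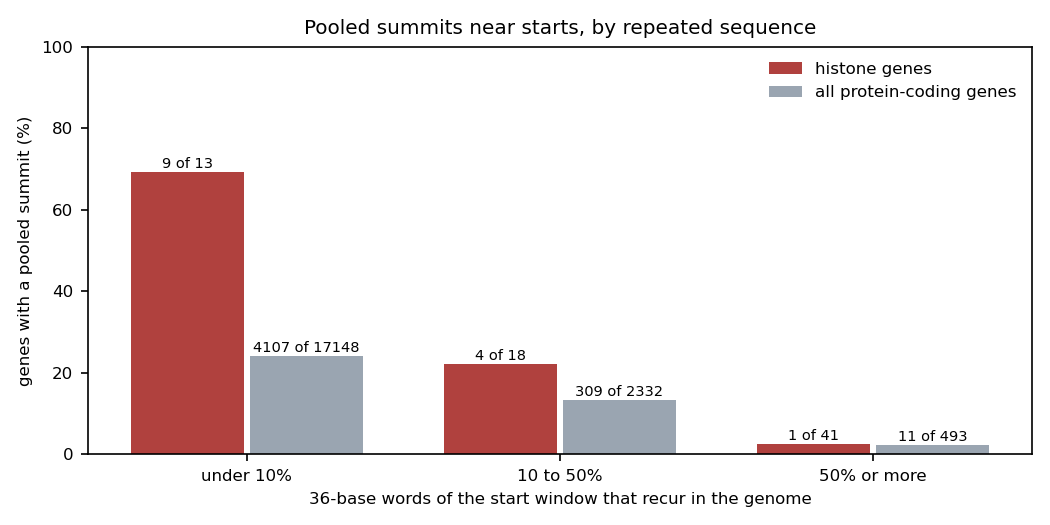
The bars give the percentage of genes with a pooled summit within 1000 bp of a start, by the share of repeated 36-base words in the start window, for histone genes and for all protein-coding genes, which include them. The numbers above the bars are genes with a summit of genes in the group. Both series fall to between 2.23% and 2.44% at 50% or more, and at under 10% the histone genes stand at 69.2% and all genes at 24.0%.

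Most summits lay inside or beyond the genes and not before them. Of the 13 pooled summits, 9 lay downstream of the start of the closest histone gene (69.2%) and 4 upstream, beside 63.5% downstream for all protein-coding genes of 1000 bp or less. Within 200 bp of the gene's end lay 6 (46.2%), and within 200 bp of the start 3 (23.1%). For the genes of 1000 bp or less, these shares were 24.5% and 22.4%, and for all without introns 32.7% and 25.1%. In replicate 3, 9 of 18 summits lay within 200 bp of the end and 1 within 200 bp of the start. For all genes of 1000 bp or less, the shares in that list were 24.1% and 22.5%. In replicate 2 these counts were 5 (27.8%) and 6 (33.3%) of 18, beside 23.1% and 25.4% for such genes. Downstream of the start lay 77.8% in replicate 3, beside 60.2%, and 61.1% in replicate 2, beside 60.5%. The downstream share in replicate 2 was thus close to that of all short genes. Between the partners of divergent pairs there was no pooled summit and none from replicate 3. Replicate 2 had 2 there, in the regions of his-31 with his-32 and of his-2 with his-1. These regions are only 227 to 368 bp long and many are repeated. The chromosomes with clusters held 0.899 pooled summits per 10 kb outside them, and no share over similar regions was taken. Nothing is therefore read from the absence of pooled summits.

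**Figure D4:**
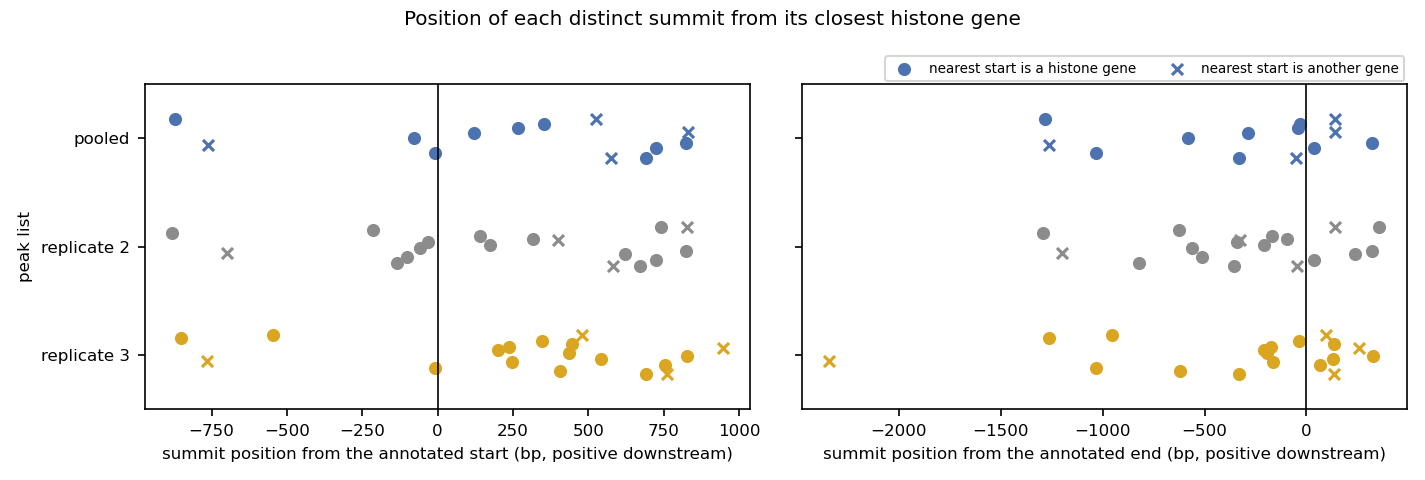
Each point is a distinct summit in the pooled, replicate 2 or replicate 3 list, placed by its distance in bp from the annotated start (left) and end (right) of the closest histone gene, with positive values downstream. Circles mark summits whose nearest protein-coding start is a histone gene and crosses those nearer to another gene. Most points lie right of the start line, 9 of 13 in the pooled list.

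Among genes for H2A and H2B, the strongest pooled summit was that of his-61 and his-62, at chrIV:7485865, with a signal of 42.9 (75.7 percentile). It lay inside the coding exon of his-61, 31 bp before its end and 352 bp from its start. Replicate 3 had a summit 5 bp away, with a signal of 28.9 (92.1 percentile), and replicate 2 had none near either gene. The peak was therefore listed in replicate 3 and not in replicate 2. The window of 50 bases on either side is printed to show that the summit lies in the last codons of an H2A gene, with coding bases in capitals.
his-61, chrIV:7485815-7485915, minus strand: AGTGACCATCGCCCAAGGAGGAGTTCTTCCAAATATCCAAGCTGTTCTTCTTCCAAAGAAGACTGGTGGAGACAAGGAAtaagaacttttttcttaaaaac

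The H2B gene his-41 shared a pooled summit with his-37, with a signal of 38.9 (62.8 percentile), in an untranslated exon of C50F4.6, a gene that starts inside his-41. The start of C50F4.6 was the nearest to it, at 250 bp. In replicate 2 the corresponding summit was 65 bp away with a signal of 24.9 (80.2 percentile), and replicate 3 had none there. Replicate 2 also had a summit of signal 22.1 in the coding exon of his-41, and replicate 3 a summit of signal 26.1 in that of his-35 (H2A). These summits around his-35 and his-41 therefore differed between the replicates.

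Among genes for H3 and H4, his-42 (H3) had the highest pooled summit of all histone genes, with a signal of 62.1, rank 451 of the list. It lay at chrII:13829569, 872 bp upstream of the gene. Replicate 2 had a summit 8 bp away with a signal of 31.7 (93.8 percentile), and replicate 3 had 1 that was 21 bp away with a signal of 24.7 (82.8 percentile). Both replicates thus placed it high. Closer to the gene, replicate 2 had a further summit at 213 bp with a signal of 25.2, and replicate 3 had 1 at 546 bp with 26.1, which do not coincide. It was 78 bp from F08G2.10, an snRNA gene and so part of a class of short noncoding RNA genes, and no other pooled summit near a histone gene was within 200 bp of a tRNA, snRNA, snoRNA or rRNA gene. The window, which holds no coding bases, is printed because it carries the highest value.
his-42, chrII:13829519-13829619, minus strand: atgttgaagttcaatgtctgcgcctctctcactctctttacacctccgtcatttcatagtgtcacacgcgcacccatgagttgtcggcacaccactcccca

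The pair his-60 (H4) and his-59 (H3) had a pooled summit with a signal of 39.6 (65.5 percentile), inside his-60 and 44 bp before its end. Replicate 2 had its higher summit there 125 bp away, with a signal of 20.7 (57.0 percentile), and replicate 3 had 1 beyond the end of his-60 with a signal of 29.4 (92.9 percentile). The pair his-31 (H4) and his-32 (H3) had a pooled summit with a signal of 41.3 (71.4 percentile), 121 bp inside his-32. Here replicate 2 had a signal of 18.3 (33.1 percentile) between the genes, and replicate 3 had 15.8 (2.10 percentile) within his-32, so the replicates were lower in their lists than the pooled summit in its own. The windows of both pooled summits are printed because they lie in coding sequence, in capitals, of proteins encoded by every H3 or H4 copy.
his-60, chrIV:7487675-7487775, minus strand: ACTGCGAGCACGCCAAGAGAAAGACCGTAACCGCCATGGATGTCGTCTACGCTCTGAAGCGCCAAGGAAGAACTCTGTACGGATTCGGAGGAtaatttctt
his-32, chrIV:8334376-8334476, plus strand: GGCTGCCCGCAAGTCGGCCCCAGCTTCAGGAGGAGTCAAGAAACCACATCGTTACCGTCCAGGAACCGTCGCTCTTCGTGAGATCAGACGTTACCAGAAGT

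The H4 gene his-37, which has introns, had the most pooled summits of the members, 3 in all. The highest lay 825 bp downstream of its start, past its end and in a coding exon of nstp-10, with a signal of 49.0 (87.1 percentile). It recurred at the same base in replicate 2, with a signal of 22.2 (68.0 percentile), and 1 bp away in replicate 3, with 22.5 (73.3 percentile). This was the closest match between the replicates among all 72 genes. The second lay 80 bp upstream of the start with a signal of 32.5 (23.9 percentile), and replicate 2 had a summit 21 bp away with 24.6 (79.1 percentile), while replicate 3 had none there. The third was that shared with his-41.

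The genes for H3.3-like proteins, which supply H3 outside replication, had pooled summits at his-69, his-71, his-72 and his-74. The gene his-71, at chrX:7981382-7982070, had a summit 37 bp past its end with a signal of 44.6 (79.9 percentile). Replicate 2 had it at the same base with 22.9 (71.6 percentile), and replicate 3 had it 29 bp away with 16.2 (8.80 percentile). Replicate 2 alone also had a summit 134 bp before the start, at the 51.2 percentile. The gene his-74 had a pooled summit with a signal of 41.9 (72.8 percentile), 50 bp before its end and 67 bp from the start of ccch-3. In replicate 2 it had a signal of 35.7 (96.4 percentile, rank 485), and replicate 3 had 15.8 (1.03 percentile, rank 13603) at 183 bp from it. The replicates thus placed his-74 near opposite ends of their lists.

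The other 2 of these summits were also nearer to the start of another gene. The pooled summit of his-72 had a signal of 33.2 (29.7 percentile) and lay 38 bp from the start of Y75B8A.33, in its coding exon. Replicate 2 had a signal of 22.7 (70.4 percentile) at 2 bp from it, and replicate 3 had 16.3 (10.8 percentile) farther into Y75B8A.33. Replicate 3 also had a summit of signal 19.3 on the other side of his-72, nearest to rpt-6. The pooled summit of his-69 had a signal of 36.3 (50.5 percentile), 242 bp from the start of rcq-5. Replicate 3 had 22.2 (71.5 percentile) at 48 bp from it, and replicate 2 had none. In all, 9 of the 13 pooled summits had a histone gene as the nearest protein-coding start.

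The linker histone gene his-24, at chrX:14490094-14491119, had 2 pooled summits. That within its coding sequence, 692 bp from the start, had a signal of 43.2 (76.5 percentile). Replicate 2 had 19.9 (50.6 percentile) at 21 bp from it, and replicate 3 had 19.0 (46.3 percentile) at the same base. The summit 9 bp before the start had a pooled signal of 30.2 (1.89 percentile), near the bottom of the list. It lay in an untranslated or non-coding exon of another gene, M163.19. Replicate 3 had 21.6 (67.8 percentile) at 1 bp from it, and replicate 2 had none. Replicate 3 had a further summit 406 bp inside the gene, with 18.1. The window of the coding summit is printed because both replicates held it, with coding bases in capitals.
his-24, chrX:14490736-14490836, plus strand: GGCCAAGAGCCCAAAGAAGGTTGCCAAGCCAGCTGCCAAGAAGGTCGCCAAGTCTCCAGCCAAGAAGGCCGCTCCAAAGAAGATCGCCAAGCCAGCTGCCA

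The remaining isolated genes had no pooled summit. The pair his-38 (H4) and his-40 (H3) on X shared a replicate 3 summit with a signal of 16.2 (8.82 percentile) in the coding exon of his-40, and replicate 2 had none. No list had a summit near his-67 (H4), his-68 (H2A), his-70 (H3.3-like) or his-73.

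Summits of his-24 and his-37 lay just before the start, and their windows shared a run of 18 bases. Both summits were low in the pooled list, at the 1.89 and 23.9 percentiles, and that of his-24 lay in an exon of M163.19. Each recurred nearby in 1 replicate only, replicate 3 for his-24 and replicate 2 for his-37. The run was noticed by comparing these windows and is a description. The windows are printed up to the start of the gene, with the run in capitals. It occurred in the 250 bases before 3 protein-coding starts in all.
his-24, chrX:14490035-14490093, plus strand: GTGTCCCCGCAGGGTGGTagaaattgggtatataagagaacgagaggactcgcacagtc
his-37, chrV:9546975-9547075, plus strand: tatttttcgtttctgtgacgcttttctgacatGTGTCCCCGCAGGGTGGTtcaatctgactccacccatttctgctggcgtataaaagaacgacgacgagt

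The run holds 11 words of 8 bases, each read on both strands in the 250 bases before the starts. The first 5 occurred in 26 to 44 of the 72 histone genes and the last 6 in 2 to 4, so the rest of the run was rare there. The word with the highest histone share, singled out after these values were seen, was the first, GTGTCCCC. It occurred in the 250 bases before 44 of 72 histone genes (61.1%), against 0.471% of all protein-coding genes. These bases overlap between partners of a divergent pair, and some regions are identical copies, so the 44 are not separate occurrences. Of these 44 genes, 6 had a pooled summit (13.6%), his-24 and his-37 among them, beside 22.2% of all protein-coding genes. Among 50 non-histone genes with the word, 12 had one. The word lay in 14 of all 9583 pooled summit windows (0.146%). Near histone genes it lay in 2 of the 13 windows, those of his-24 and his-37 from which it was taken. That count was therefore fixed by the choice of the word. The median share of repeated words around the 44 starts was 81.8%. The nuclear receptor half-sites AGGTCA and GGGTCA, read on both strands, occurred in 1 of the 13 windows (7.69%), against 4.32% of all nuclear pooled summit windows. The median GC content of the 13 windows was 47.5%, against 39.6%.

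Genes for other histones and for histone handling gave 8 of 23 with a pooled summit, 11 in replicate 2, 8 in replicate 3, 6 in both and 0 in the optimal list. Over all protein-coding genes the shares were 22.2% in the pooled list, 28.3% in replicate 2, 30.1% in replicate 3, 14.0% in both and 0.581% in the optimal list, and nothing particular to these 23 genes is read from their counts. The highest was lin-53, a histone-binding protein of chromatin complexes, with a pooled signal of 65.5 (rank 377), 42.4 in replicate 2 and 25.1 in replicate 3. Next were the linker histone genes hil-2 with a pooled signal of 47.0 and hil-7 with 43.2, both with summits in each replicate. Lower values belonged to chaf-2 (35.8) and chaf-1 (33.3), subunits of the chromatin assembly factor, and to htz-1 (33.2), the H2A.Z gene. The genes cpar-1 (31.6) and hcp-3 (30.3), for centromeric H3 proteins, were the lowest. No histone gene of the 72 reached the pooled signal of lin-53.

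For comparison, 42 of 78 genes for ribosomal proteins, with a median of 0% repeated words, had a pooled summit (53.8%). Of the 31 genes for major sperm proteins, a group that is also repeated and clustered, with a median of 21.0% repeated words, none had a pooled summit, 1 had a summit in replicate 2 and 6 in replicate 3. The histone share of 19.4% lay between these.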

How the data were processed

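The 2 biological replicates were assayed by ChIP-seq, and sonicated chromatin is stated per the labels. The authors deposited peak lists on ce11, namely 1 for each replicate, a pooled list and an optimal list, made per the deposited file descriptions by the irreproducible discovery rate, which ranks how well peaks recur. Each peak has a signal value deposited by the authors, with scaling not stated, and a −log10 q-value deposited by the authors. The aligner, the peak caller, read length and handling of multiply placed reads are not given in the sources used here. The 4 lists on ce10 were not used, since coordinates were not converted. Without read counts the depth per sample is unknown.

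Summits were compared with transcript starts of Ensembl release 115 gene models on WBcel235, the same assembly as ce11. Ensembl gives the 72 histone genes 50 distinct symbols, so the 72 symbols of RefSeq were matched by WormBase ID. Start sets were the same in both annotations for all 72. Clusters, 36-base words, hairpins and pairs were computed from the RefSeq genome with Python 3.11.15, pandas 2.3.3 and numpy 2.4.6. The summit search was tested on simulated summits. No test over genes was run, because members share summits. Members and lists were chosen with earlier results of these data known. Named genes were all members with a pooled summit, all isolated genes, the first and last gene of each cluster, and listed other histone genes with a pooled summit; further members named beside a replicate summit or a printed sequence were chosen after their values were seen.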

Additional observations from a re-analysis of the deposited data

How the results depend on the processing

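No optimal summit came within 1000 bp of a histone start, nor within any other distance tried or by overlap of the peak interval. The 14 histone genes with a pooled summit were 3 within 250 bp, 6 within 500 bp and 7 when a histone gene had to have the nearest start, and 20 to 22 with either replicate list alone. The 15 genes with a summit in both replicates were 0 within 250 bp, 2 within 500 bp, 7 in the upper 50% by signal, and 4 with summits within 100 bp or 50 bp of each other. The clustered minus isolated share of -30.7 percentage points was -5.81 within 250 bp, -0.894 within 500 bp and -5.45 under 50% repeated. It was -65.1 with clusters of 2 or more, which left few isolated genes, and -39.0 to -10.1 with either replicate alone. The 0.873 summits per 10 kb in clusters ranged from 1.12 to 1.87 with either replicate alone. The median percentile of 71.4 was 74.3 in the upper 50% by signal and 75.7 for nearest starts only, and 58.5 to 62.2 with either replicate alone. For the distances and the nearest start, fewer summits qualify by construction; for the rest the cause was not tested. Of 44 alternatives, 25 left the value within the limits used (1.5 times for counts, otherwise the SD between replicate lists) and 19 moved it. A change of sign was possible only for the clustered minus isolated share, and 0 alternatives reversed it. The SD came from the values of the 2 replicate lists, which were themselves among the alternatives. Settings for the nearest start, repeated words and core histones were chosen after seeing the data. No paired analysis was possible because the replicates form 1 group. Depth is unknown, and a listed peak need not be binding, since the long lists hold background.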
